A study of Mus musculus with 12 samples.

Results

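The Meis, Pbx and Pknox genes encode cofactors of the Hox proteins, and their chromatin was compared between mesenchymal stem cells (MSCs) of young and old mice by CUT&RUN. In this assay an antibody tethers a nuclease to a histone mark and the DNA released around it is sequenced. The antibodies were against H3K27ac, the acetylation of histone H3 at lysine 27 found at active promoters and enhancers, and H3K27me3, the trimethylation of the same residue laid down by Polycomb. Cells of young mice (3 to 5 months) and old mice (18 to 22 months) were both kept at 2% O2, and 3 libraries per age and mark gave 12 libraries in 4 groups. The labels give no strain, genotype or treatment, and they do not say whether libraries came from separate animals, so that every p-value measures the spread between these samples only. The 8 genes Meis1, Meis2, Meis3, Pbx2, Pbx3, Pbx4, Pknox1 and Pknox2, of 21951 annotated protein-coding genes, were chosen by family with earlier results of these data known. Their regions were selected on position, as every region the authors had called from the read signal that overlapped a gene body or its 50 kb flanks. This gave 37 of 31617 H3K27ac regions and 34 of 28047 H3K27me3 regions.

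Proteins of the Meis, Pbx and Pknox families share a TALE homeodomain, which carries an extra loop. Pbx proteins bind DNA together with Hox proteins and sharpen their choice of sites, while Meis and Pknox (Prep) proteins bind Pbx, help to bring it into the nucleus and join the complexes with Hox on DNA. Pknox and Meis proteins compete for Pbx. Together they pattern limbs, skeleton and hindbrain in the embryo, and Meis1 is also known for the maintenance of blood stem cells. Developmental regulators of this kind often carry broad H3K27me3 domains in cells that do not use them, and a promoter with both marks in a population may hold them on different alleles or in different cells. In such bulk libraries, fewer cells with a mark and less mark per cell cannot be told apart.

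The labelled cell type was checked by H3K27ac over the transcription start site. All 10 mesenchymal markers (among them Pdgfra, Prrx1 and Col1a1) had such a region, against 0 of 7 blood, 1 of 3 endothelial (Pecam1), 0 of 2 epithelial and 0 of 2 muscle markers. None of these marker regions passed the test between ages in either mark. Libraries held 2750953 to 5541429 reads for H3K27ac and 3622108 to 9947515 reads for H3K27me3, and the shallowest of both marks was old replicate 2. The share of H3K27me3 reads inside regions was 62.3 to 66.6% in young and 53.8 to 60.8% in old libraries.

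The signal of a region is its number of reads divided by the read total of the library and by a constant 0.5 kb, and then scaled between libraries by the median of ratios (RLE). Levels are compared between regions only after division by length (signal per kb). A region is said to lie over a start site when it reaches within 1 kb of it. Regions were tested with limma over the whole table of a mark, a fold change is on the scale of log2(signal + 0.5) as old over young, and called means a Benjamini-Hochberg adjusted p-value under 0.05.

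Sequences from before the outermost mRNA start that GENCODE or RefSeq annotates are shown for the genes on which the results turn. The start of Meis1 lay in an H3K27ac region alone, that of Meis2 in regions of both marks, and that of Pknox2 in a broad H3K27me3 domain. Each holds 250 bases of GRCm38 (mm10), 5′ to 3′ on the minus strand on which all of these genes lie, and capitals mark CpG dinucleotides.
Meis1, chr11:19019652-19019901: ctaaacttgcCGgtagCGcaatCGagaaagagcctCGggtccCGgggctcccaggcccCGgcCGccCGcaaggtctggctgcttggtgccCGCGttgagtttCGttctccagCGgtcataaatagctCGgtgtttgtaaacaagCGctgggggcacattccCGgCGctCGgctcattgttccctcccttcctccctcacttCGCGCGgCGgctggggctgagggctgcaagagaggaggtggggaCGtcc
Meis2, chr2:116067538-116067787: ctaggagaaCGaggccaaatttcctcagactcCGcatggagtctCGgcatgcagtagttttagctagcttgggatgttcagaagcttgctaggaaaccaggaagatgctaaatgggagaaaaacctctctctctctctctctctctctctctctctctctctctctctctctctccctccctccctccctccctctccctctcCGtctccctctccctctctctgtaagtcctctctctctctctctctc
Pknox2, chr9:37147408-37147657: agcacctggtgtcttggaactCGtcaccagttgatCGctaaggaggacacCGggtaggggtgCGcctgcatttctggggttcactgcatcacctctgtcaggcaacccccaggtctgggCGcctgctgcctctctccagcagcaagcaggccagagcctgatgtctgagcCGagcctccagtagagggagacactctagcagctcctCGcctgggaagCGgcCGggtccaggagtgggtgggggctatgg
The windows of Meis1, Meis2 and Pknox2 held 22, 4 and 9 CpG dinucleotides, and their GC content was 64.4%, 52.4% and 63.2%. The low CpG number of Meis2 concerns this window only. The whole H3K27me3 region over its start had an observed over expected CpG ratio of 0.508, against a median of 0.186 over all H3K27me3 regions, and the H3K27ac region over the Meis1 start had a ratio of 0.497 against a median of 0.223. The Meis and Pknox motif TGACAG was found, on either strand, in the window of 1 of the 8 genes (Pknox2), and in 14.6% of the windows of 21852 genes. The motif TGATTGAC of Pbx with Meis or Pknox, which ends in the first bases of TGACAG, and the motifs TGATTGAT, TGATTTAT and TGATTAAT of Pbx with Hox were found in 0 of the 8 windows and in 0.723%, 0.586%, 0.769% and 0.636% of all windows.

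The genes differed in how much of their locus the marks covered. Pknox2, of 256 kb, lay almost wholly in H3K27me3 domains, which covered 86.7% of the gene and its flanks, while H3K27ac regions covered 4.21%. At the other end, H3K27ac covered 33.4% of the Pbx2 locus and 30.6% of the Pbx4 locus, and H3K27me3 covered 33.4% and 18.6%. Many of these H3K27ac regions lay over other genes: the one at the Pbx2 start also covered the starts of Ager, Agpat1, Gpsm3 and Rnf5, and a region of 80.5 kb beyond Pbx4 covered those of Gatad2a, Ndufa13, Tssk6 and Yjefn3. Bases in both marks made up 3.80% of the Meis2 locus (11.5 kb), 3.14% of Meis3, 2.10% of Pknox2, and none of Pbx3, Pbx4 and Pknox1.

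**Figure D1:**
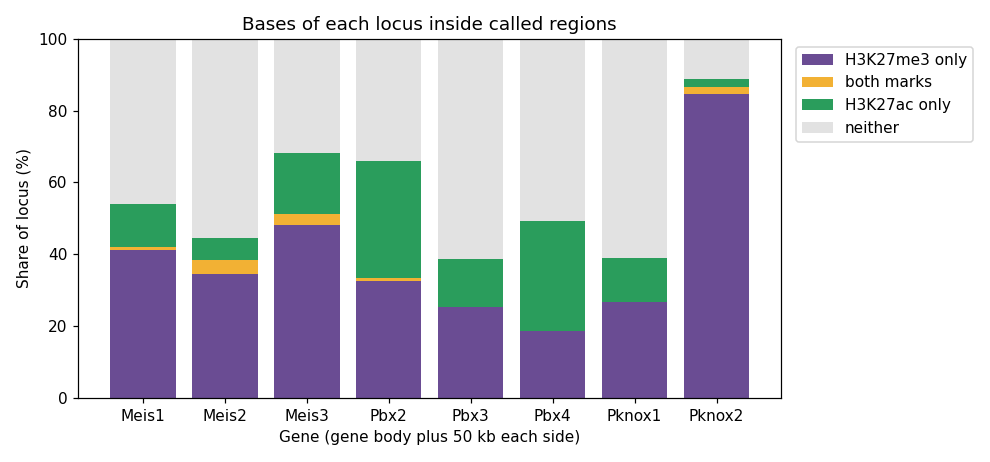
Share of each locus (gene body plus 50 kb each side, in percent of bases) inside H3K27me3 regions only, H3K27ac regions only, both or neither. Pknox2 is 86.7% covered by H3K27me3, and the Meis2 bar has the widest band of both marks (3.80%).

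The clearest difference between ages was at Meis2, where H3K27me3 over the promoter was lower in old cells. The region chr2:116056501-116068500 reaches from 2.66 kb before the 5′ end of the gene to 9.34 kb inside it, and covers coding exon, UTR and intron. Its H3K27me3 signal was 20.3, 19.7 and 22.5 in the young libraries and 6.99, 5.69 and 5.07 in the old ones. Every old library thus lay far below every young one. The mean fell from 20.9 ± 1.46 to 5.91 ± 0.98 (SD, n = 3), a log2 fold change of -1.74 ± 0.19 (SE) with an adjusted p-value of 0.000176, the smallest of the 28047 regions. The authors had called this region in young cells only, so that it entered through the age in which it was high. Its p-value and rank are therefore descriptions. Recovered reads were 103, 98 and 86 in young and 32, 10 and 16 in old libraries. Per kb, the signal was 1.74 in young and 0.493 in old cells, and the mean signal outside all H3K27me3 regions was 0.309 to 0.364 per kb in young and 0.391 to 0.493 per kb in old libraries. The region also spans transcripts of 2 lincRNA genes, 2700033N17Rik and G630016G05Rik, whose chromatin is not separable from that of the Meis2 start.

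Lower H3K27me3 was also measured beside the promoter. The adjoining upstream region chr2:116068501-116075500, from 9.66 to 2.66 kb before the gene, had 23.7, 24.3 and 32.2 in young and 13.5, 10.2 and 10.5 in old libraries (log2 fold change -1.19 ± 0.17, adjusted p = 0.00365). Next to it, chr2:116075501-116077500 had 5.33, 5.63 and 8.11 in young and 2.18, 2.84 and 0.634 in old libraries (log2 fold change -1.64 ± 0.36, adjusted p = 0.0455), on 10, 5 and 2 reads in the old libraries. Both were called, with no overlap between the ages. The remaining called region, chr2:116008001-116010500, lay in an intron 55.3 to 57.8 kb inside the gene and had 4.54, 3.22 and 5.49 in young and 0.873, 0.569 and 1.58 in old libraries (log2 fold change -1.73 ± 0.36, adjusted p = 0.0387), on 4, 1 and 5 reads in the old libraries. Farther upstream the differences were not called: chr2:116080001-116106500 had 56.3, 57.9 and 58.1 in young and 56.8, 45.5 and 45.01 in old libraries (log2 fold change -0.23 ± 0.12, adjusted p = 0.376), with 2 of the 3 old values below all young ones, and chr2:116113001-116144500 had means of 35.5 and 45.4 (0.35 ± 0.14, adjusted p = 0.239).

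A second stretch of lower H3K27me3 lay at the 3′ end of Meis2 and did not pass the test region by region. Signal over the last exons and 3′ UTR, chr2:115861501-115872500, had means of 15.9 in young and 5.79 in old cells (adjusted p = 0.0903), an intronic region beside it, chr2:115876001-115882000, had 8.90 and 3.72 (adjusted p = 0.0565), and the region beyond the gene, chr2:115844001-115861500, had 69.1 and 50.4 (adjusted p = 0.0766). None of these overlapped between the ages. In all, 9 of the 13 Meis2 regions of H3K27me3 had every old library below every young one, against 10.6% of all regions, and so did 3 of the 7 that had been called in both ages.

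The boundaries of these regions were drawn from the same libraries. The authors had split domains by the age in which they called them, and 6 of the 13 Meis2 regions, among them 3 of the 4 called ones, carried the state young, as did 3.12% of all H3K27me3 regions. The promoter region was among these 3. Only chr2:116068501-116075500, of the called ones, had the state of both ages. With abutting regions joined whatever their state, a choice made after the data were seen, the 50.0 kb from the promoter to chr2:116106500 had a log2 fold change of -0.74 ± 0.11 (adjusted p = 0.00467), the 38.0 kb around the 3′ end one of -0.65 ± 0.11 (adjusted p = 0.0102), and the intronic region kept an adjusted p of 0.0399. The promoter region passed the test in all 15 alternatives that gave it a value (adjusted p from 3.97e-07 to 0.0378). None of these alternatives removes that selection. The joined stretches still hold the regions called in young cells only, and the intronic region abutted no other and stayed as it was. The other alternatives kept the boundaries as drawn from these libraries. The adjoining region had an adjusted p of 0.0894 without young replicate 3 and of 0.0675 without trend and robust moderation. The intronic region lost its call when any one of the young replicates was left out or old replicate 1 (adjusted p 0.0626 to 0.247), and chr2:116075501-116077500 when any one of the young replicates or old replicate 1 or 3 was left out (0.0564 to 0.269). Both also lost it with a pseudocount of 0.1 (0.0619 and 0.0778) and without trend and robust moderation (0.0990 and 0.210).

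**Figure D2:**
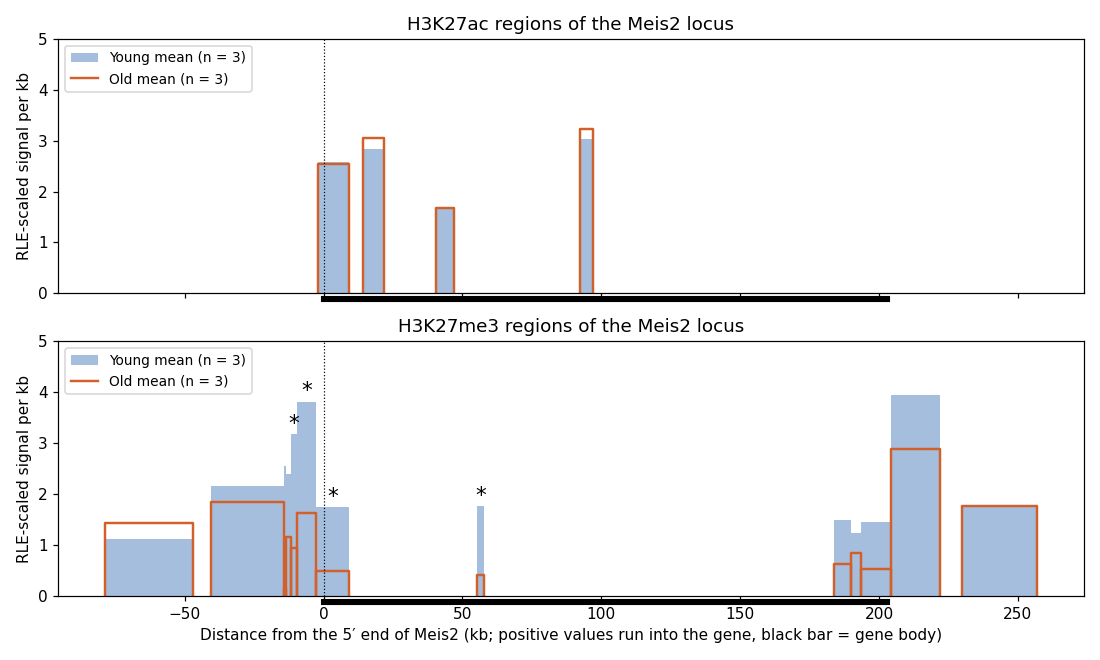
RLE-scaled signal per kb of every H3K27ac (top) and H3K27me3 (bottom) region of the Meis2 locus against the distance from the 5′ end of the gene in kb; filled blocks are the mean of 3 young and outlines the mean of 3 old libraries, and stars mark adjusted p under 0.05. The outline is far below the fill around 0 in H3K27me3 (0.493 against 1.74 per kb over the start), while they lie close together in H3K27ac.

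H3K27ac at the same promoter showed no such difference. The region chr2:116056501-116068000, which lies within the H3K27me3 region, had 34.3, 32.9 and 21.7 in young and 27.5, 29.9 and 30.1 in old libraries, with the young values on both sides of the old ones. Its log2 fold change was 0.00 ± 0.17 (adjusted p = 0.997). The other 3 H3K27ac regions of Meis2, all inside the gene, had log2 fold changes of -0.02 to 0.12. The smallest p-value among the 4 was that of the intronic region chr2:115969001-115973500 (0.12 ± 0.24, adjusted p = 0.921), whose sign turned without young or old replicate 2 (both -0.050). The log2 ratio of H3K27ac to H3K27me3 per kb over the start was 0.81, 0.80 and 0.01 in young and 2.04, 2.45 and 2.63 in old samples, with no overlap. Since the tables of the marks were normalised separately, only the difference between ages of such a ratio can be read. The H3K27me3 region of this ratio had been called in young cells only. Overlap of this kind was rare in the tables: H3K27ac covered at least 50% of 1.33% of all H3K27me3 regions and of 3.51% of the 114 called lower in old cells, and 2 of these 114 also lay over a start site.

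Meis1 had H3K27ac at its start, between H3K27me3 domains on both sides of the gene. The H3K27ac region over the start, chr11:19007001-19021000, ended at the base before an upstream H3K27me3 domain began. It had 39.5, 34.6 and 37.2 in young and 43.0, 58.2 and 47.9 in old libraries, so that all old values were above all young ones. Its log2 fold change was 0.41 ± 0.14, with the smallest H3K27ac p-value of the locus, and it was not called (adjusted p = 0.283). All 6 H3K27ac regions of Meis1 had higher means in old cells, with log2 fold changes of 0.18 to 1.08, and 4 of them did not overlap between the ages, against 7.09% of all H3K27ac regions in this direction. The largest of these, chr11:18876501-18879000, lay 0.817 kb beyond the gene, with 2.0 kb of it inside the downstream H3K27me3 domain, and had means of 3.09 and 6.77 (log2 fold change 1.08 ± 0.37, adjusted p = 0.295). These means rest on 13, 3 and 10 reads in young and 14, 9 and 15 reads in old libraries. The H3K27me3 domains had 141, 140 and 152 in young and 134.03, 124 and 135 in old libraries upstream (chr11:19021001-19080500, log2 fold change -0.14 ± 0.09, adjusted p = 0.497), and 155, 148 and 151 against 141, 104 and 126 downstream (chr11:18816501-18878500, -0.30 ± 0.10, adjusted p = 0.169). No Meis1 region of either mark was called, and the 3 H3K27me3 regions had old values below all young ones (10.6% of all H3K27me3 regions).

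Meis3, the shortest of the Meis genes here (11.4 kb), had a small H3K27ac region over its start and an upstream H3K27me3 domain that ended 0.59 kb before the gene. The H3K27ac region, chr7:16174001-16176500, had 8.49, 6.35 and 5.26 in young and 5.58, 7.08 and 9.68 in old libraries (log2 fold change 0.13 ± 0.30, adjusted p = 0.928). The domain, chr7:16129001-16174500, had 115, 120 and 111 in young and 107, 118 and 107 in old libraries (-0.05 ± 0.09, adjusted p = 0.841), and it also covered the start of Slc8a2. The ages overlapped at both. The smallest p-values were those of chr7:16206001-16223000 for H3K27ac, a region that covers the start of Dhx34 (0.14 ± 0.14, adjusted p = 0.798), and of chr7:16187001-16192500 for H3K27me3, just beyond the gene (-0.34 ± 0.17, adjusted p = 0.377). The latter had 19.0, 16.7 and 16.5 in young and 16.2, 12.5 and 12.4 in old libraries, with no overlap.

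Among the Pbx genes, no region of either mark was called. Pbx3, of 202 kb, had H3K27ac over its start and inside the gene and H3K27me3 on its flanks, with no bases in both. The H3K27ac region over the start, chr2:34365501-34374000, had 17.6, 15.6 and 14.5 in young and 15.5, 21.2 and 17.8 in old libraries (log2 fold change 0.18 ± 0.20, adjusted p = 0.830), with overlap. Near the 3′ end, chr2:34174501-34180000 had 5.55, 9.81 and 7.89 in young and 11.2, 11.8 and 11.7 in old libraries (0.58 ± 0.26, adjusted p = 0.477). The H3K27me3 domain of 117.5 kb beyond the gene, chr2:34051501-34169000, had 358, 370 and 350.5 in young and 306, 307 and 293 in old libraries (-0.25 ± 0.08, adjusted p = 0.129). In both of the last regions the ages did not overlap, H3K27ac being higher and H3K27me3 lower in old cells. Upstream, chr2:34376001-34405000 had 54.5, 46.9 and 50.2 of H3K27me3 against 53.7, 64.8 and 57.4 (0.21 ± 0.11, adjusted p = 0.417).

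Pbx2 and Pbx4 lie among many other genes. The H3K27ac region shared by Pbx2, Ager, Agpat1, Gpsm3 and Rnf5, chr17:34586501-34609500, had 61.1, 50.2 and 53.3 in young and 52.2, 54.3 and 61.7 in old libraries (log2 fold change 0.03 ± 0.12, adjusted p = 0.962). No H3K27me3 region lay over the Pbx2 start, and the nearest, chr17:34580001-34587000, had 7.70, 9.46 and 6.54 against 7.42, 8.53 and 10.8 (0.16 ± 0.22, adjusted p = 0.798). The smallest H3K27ac p-value at Pbx2 was that of chr17:34639501-34648500 over Atf6b and Fkbpl (0.40 ± 0.21, adjusted p = 0.551). Pbx2 thus had overlapping ages in all 4 regions of each mark.

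Pbx4 was the only one of the 8 genes with no H3K27ac region within 1 kb of a start. Its nearest H3K27ac region, chr8:69846501-69851500, lay in an intron 14.01 kb inside the gene and had the smallest H3K27ac p-value of all 37 regions. It had 5.88, 12.1 and 8.22 in young and 16.3, 14.2 and 16.3 in old libraries (log2 fold change 0.85 ± 0.25, adjusted p = 0.192), with no overlap. The H3K27me3 region that began 0.51 kb inside the gene, chr8:69833001-69837000, had 6.91, 6.84 and 7.85 in young and 9.17, 6.26 and 6.97 in old libraries (0.03 ± 0.22, adjusted p = 0.964). At the other end of the gene, chr8:69870001-69892000 covered the last exons of Pbx4 and the start of Cilp2 and had 85.3, 94.6 and 98.6 in young and 81.0, 83.0 and 57.1 in old libraries (-0.35 ± 0.12, adjusted p = 0.200). Its log2 fold change was -0.44 without old replicate 2 (adjusted p = 0.0460) and -0.17 without old replicate 3 (adjusted p = 0.453), and over all its alternatives the adjusted p-value ran from 0.0460 to 0.493.

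The Pknox genes differed in H3K27me3, which covered 26.6% of the Pknox1 locus and 86.7% of the Pknox2 locus. Pknox1 had no H3K27me3 region over a start, and its H3K27ac region there, chr17:31563001-31571500, had 26.5, 30.0 and 21.7 in young and 31.9, 29.9 and 37.7 in old libraries (log2 fold change 0.35 ± 0.16, adjusted p = 0.4997), with overlap. A further H3K27ac region over an internal start, chr17:31591001-31592500, had 2.29, 2.31 and 3.62 against 3.59, 2.36 and 2.04. The nearest H3K27me3 region, chr17:31544501-31559000, had 25.5, 26.8 and 23.3 against 25.3, 37.5 and 27.9 (0.24 ± 0.15, adjusted p = 0.496). In Pknox2, a domain of 150.0 kb covered the start (chr9:37056501-37206500) and one of 167.0 kb the 3′ part of the gene (chr9:36877501-37044500). Between them lay 2 H3K27ac regions and a H3K27me3 region of 1.0 kb called in young cells only. Over the start, H3K27me3 was 464, 481 and 573 in young and 459, 342 and 338 in old libraries (-0.42 ± 0.11, adjusted p = 0.0849). In the domain over the 3′ part it was 440, 405 and 496 in young and 379, 266 and 333 in old libraries (-0.47 ± 0.11, adjusted p = 0.0627). All old values lay below all young ones in both domains, over the start by a small margin in old replicate 1, and neither was called. The domain over the 3′ part passed the threshold in 5 of 16 alternatives, among them edgeR (adjusted p = 0.0148) and DESeq2 (adjusted p = 0.0181) on the recovered reads and limma without old replicate 1 (adjusted p = 0.0275). It did not in the other 11, with adjusted p-values of up to 0.354 (without trend and robust moderation) and of 0.145 to 0.278 without any one of the young replicates. The H3K27ac region nearest the start, chr9:37145501-37147000, 0.314 kb from it and within the H3K27me3 domain, had 2.61, 4.62 and 2.96 in young and 2.79, 4.72 and 5.10 in old libraries (0.27 ± 0.40, adjusted p = 0.884). The smallest H3K27ac p-value at Pknox2 was that of chr9:37099001-37101500 (-0.28 ± 0.34, adjusted p = 0.848).

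**Figure D3:**
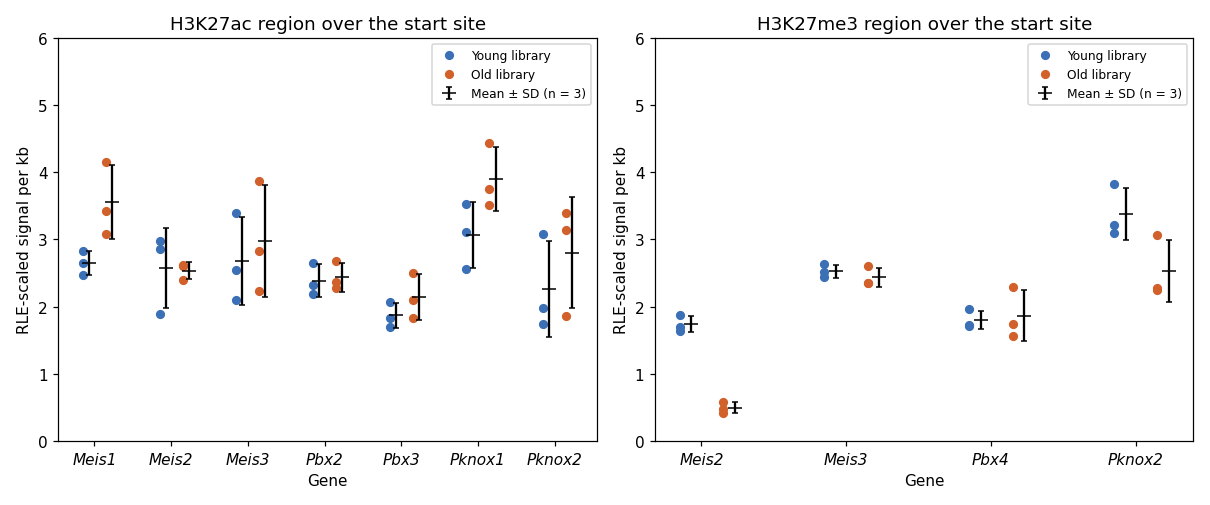
RLE-scaled signal per kb in each library for the region over the start of each gene (or within 1 kb of it) that has one, averaged over the whole region, H3K27ac left and H3K27me3 right, with mean ± SD (n = 3) in black. Meis2 is the gene in which the old H3K27me3 libraries (all under 0.6) are separated most widely from the young ones (all above 1.6).

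The levels over the start sites gave no sharp order for H3K27ac. Each level is the mean of a whole region that covers a start or reaches within 1 kb of it, and the H3K27me3 region of Pknox2 spans 150.0 kb. In young cells the mean signal per kb ran from 3.07 ± 0.49 (SD, n = 3) at Pknox1 through Meis3 (2.68), Meis1 (2.65), Meis2 (2.58), Pbx2 (2.39) and Pknox2 (2.26) to 1.87 ± 0.19 at Pbx3, and every gene overlapped its neighbour in that order. In old cells Pknox1 was again first (3.90 ± 0.48) and Pbx3 last (2.14 ± 0.34), with overlap between all neighbours. The H3K27me3 levels were spread wider, in young cells from 3.37 ± 0.39 at Pknox2 and 2.53 ± 0.09 at Meis3, which did not overlap each other, to 1.80 ± 0.14 at Pbx4 and 1.74 ± 0.12 at Meis2, which did. In old cells Pknox2 (2.53 ± 0.46) and Meis3 (2.44 ± 0.14) overlapped, and Meis2 (0.493 ± 0.08) lay below Pbx4 (1.87 ± 0.38) without overlap.

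Over all 8 loci, 4 of 34 H3K27me3 regions were called, all at Meis2 and all lower in old cells, where 0.488% of all H3K27me3 regions were called and 0.406% were called lower. Of the 34, 18 had all old values below all young ones (background 10.6%) and 0 had all old values above (background 8.56%), and 17 had an unadjusted p-value under 0.05 (background 13.9%), 16 of them lower. The number of calls was 1 without young replicate 3 and 2 without young replicate 1 or 2. Of the 34 regions, 7 had been called in young cells only and 0 in old cells only, so that they entered through the age in which they were high, and the counts over all 34 are descriptions. Among the 27 called in both ages, a choice made after the data were seen, 1 was called lower (background 0.250%), 9 had a lower value at an unadjusted p under 0.05 (background 6.65%) and 11 had all old values below all young ones (background 8.75%). Without Meis2 and Pknox2, 6 of 18 regions had all old values below all young ones. For H3K27ac, 0 of 37 regions were called by limma (background 0.0822%), by edgeR or by DESeq2, which gave no adjusted p for 36 of them, and 6 had an unadjusted p-value under 0.05 (background 9.60%), all higher in old cells. Of the 37, 8 had all old values above all young ones (background 7.09%), in Meis1 (4), Pbx3 (2) and Pbx4 (2), and 0 had all old values below (background 7.42%). The median log2 fold change was -0.28 over the 34 H3K27me3 regions and -0.01 over all regions of the table, and 0.08 and 0.00 for H3K27ac. The H3K27me3 median of the members was -0.069 over the 27 regions called in both ages, -0.069 over 25 regions with abutting ones joined and -0.072 with the regions of lowest signal left out. Neighbouring regions of a gene are not independent, and 13 of the 34 belong to Meis2. Without Meis2 the median of the remaining 21 was -0.07. On the signal as deposited, the median of all regions itself moved to -0.13 for H3K27me3 and -0.12 for H3K27ac, and those of the members to -0.40 and -0.03. The regions nearest to the 50 kb limit were at Pbx4 for H3K27me3 (49.99 kb, means 6.59 and 8.20) and at Pknox1 for H3K27ac (46.3 kb, 22.3 and 21.9), and those just beyond it both at Pknox1, for H3K27me3 at 52.8 kb (59.2 and 58.0) and for H3K27ac at 51.2 kb (23.9 and 29.9).

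**Figure D4:**
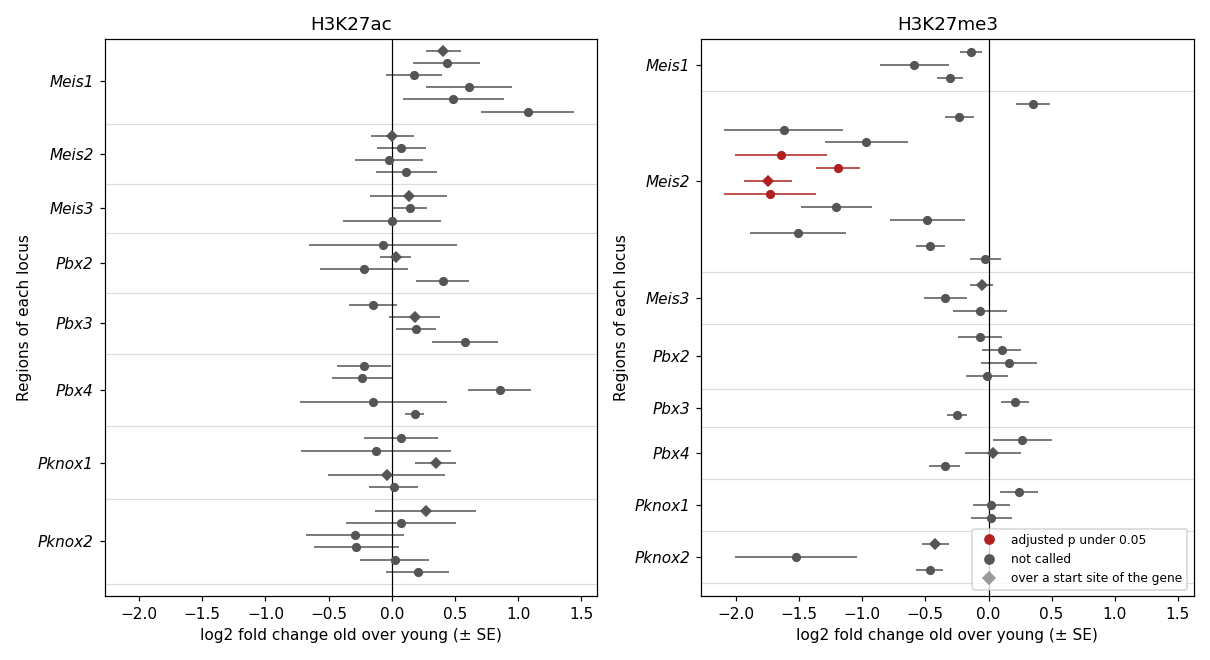
Log2 fold change (old over young) ± SE of all 37 H3K27ac (left) and 34 H3K27me3 (right) regions, grouped by gene and ordered from upstream to downstream; red marks adjusted p under 0.05 and diamonds regions over a start of the gene. The only red points are 4 H3K27me3 regions of Meis2, between -1.19 and -1.74.

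Summed over a locus, H3K27me3 was lower in old cells at 6 genes and H3K27ac higher at all 8, on the RLE scale and mostly by small amounts. On the signal as deposited, H3K27me3 totals were lower at all 8 (log2 ratio -0.080 at Pbx2 and -0.0058 at Pknox1), and H3K27ac totals turned lower at Meis2 (-0.099), Pbx2 (-0.022) and Pknox2 (-0.063). Leaving out single replicates also turned the sign of these 3 H3K27ac totals and of the H3K27me3 total of Pknox1. The H3K27me3 total of Meis2 was 297, 294 and 321 in young and 251, 201 and 230 in old libraries, a change of -25.1%, and that of Pknox2 was 905, 888 and 1071 against 839, 608 and 671, a change of -26.0%. Pbx4 (-16.2%), Meis1 (-14.4%) and Pbx3 (-12.0%) also had totals that did not overlap, while Meis3 (-5.77%), Pbx2 (3.09%) and Pknox1 (8.35%) overlapped. In the H3K27me3 totals, 6 of the 13 Meis2 regions and 1 of the 3 Pknox2 regions had been called in young cells only. These regions entered through the age in which they were high. For H3K27ac, Meis1 had 67.9, 68.1 and 69.4 in young and 80.9, 104.6 and 93.8 in old libraries, a change of 35.9%, and Pbx3 a change of 10.6%, both with no overlap. The 6 other genes changed by 2.66% to 11.8% with overlapping totals. These totals are descriptions without a test, since with 3 libraries against 3 an exact permutation test cannot give a p-value below 0.1. No share over the loci of all genes was computed, so the counts of genes have no background beside them.

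**Figure D5:**
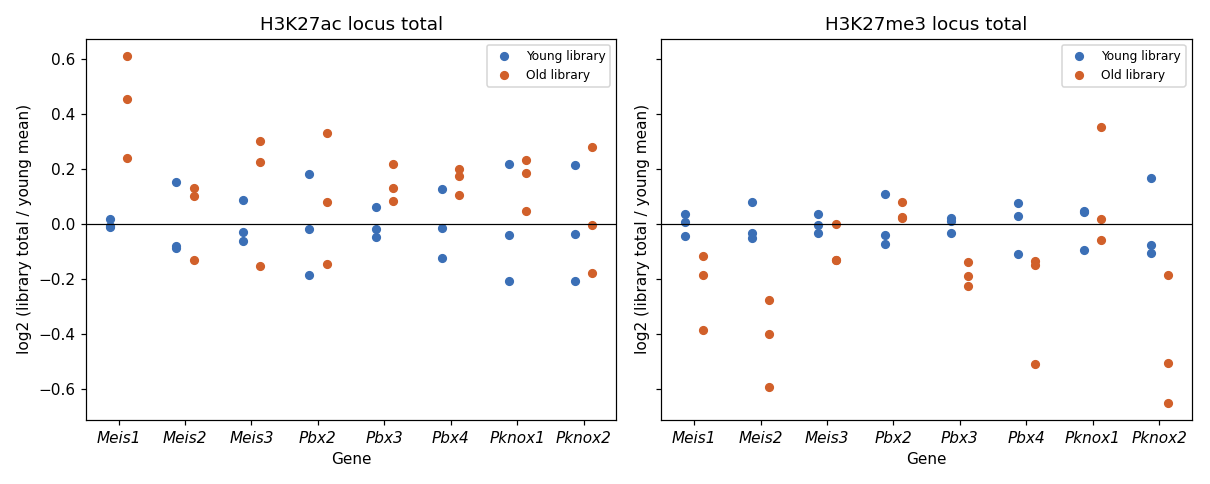
Log2 of the summed signal of each locus in each library over the mean of the young libraries, H3K27ac left and H3K27me3 right. Old libraries lie below all young ones in H3K27me3 at Meis1, Meis2, Pbx3, Pbx4 and Pknox2, and above them in H3K27ac at Meis1 and Pbx3.

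The balance of the marks, the log2 ratio of the H3K27ac to the H3K27me3 total of a sample, was higher in the old samples on average at all 8 genes, although the sign turned at Pbx2 without young replicate 2 (-0.095) or old replicate 3 (-0.056) and at Pknox1 without old replicate 1 (-0.061) or 3 (-0.0013). Libraries of the 2 marks were paired by the age and sample number in their titles. With flanks of 50 kb the difference was largest at Meis1, from -2.16, -2.10 and -2.16 in young to -1.78, -1.14 and -1.50 in old samples, a difference of 0.66. At Meis2 it was -1.82, -2.05 and -2.17 against -1.61, -1.31 and -1.74, a difference of 0.46. With flanks of 20 kb or none, the differences at Meis2 (0.76 and 1.57) and Pbx4 (1.07 in both) exceeded those at Meis1 (0.66 and 1.05). At Pbx2 the sign of the difference also turned with flanks of 20 kb (-0.099). The Meis2 balances, with any flank, include H3K27me3 regions called in young cells only. Pbx3 (0.33) and Pbx4 (0.43) also had balances that did not overlap between the ages, whereas Pknox2 (0.49), Meis3 (0.21), Pknox1 (0.06) and Pbx2 (0.05) overlapped. For the balance too, no share over the loci of all genes was computed. The part of the lower share of H3K27me3 reads in regions of the old libraries in these differences was not tested.

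Of the other TALE genes, 8 of 9 had an H3K27me3 region over a start, and 2 of these 8 regions, those of Irx3 (log2 fold change -0.43, adjusted p = 0.0243) and Irx2 (-0.46, adjusted p = 0.0491), were called lower in old cells (0.406% of all H3K27me3 regions). Of the 8, 6 had an unadjusted limma p under 0.05 in either direction (13.9% of all), and their median log2 fold change was -0.26. For H3K27ac, 0 of the 5 regions of the other TALE genes were called (0.0822% of all H3K27ac regions). Of the 39 Hox genes, the DNA-binding partners of the cofactors, 26 lay under 6 H3K27me3 regions. By limma 0 of these 6 were called (0.488% of all regions), and 3 had an unadjusted p under 0.05 (13.9% of all). A further count is that of H3K27ac, where 22 Hox genes lay under 8 regions, of which 2 were called (0.0822% of all). Both were lower in old cells, the one over Hoxa13 (-1.81, adjusted p = 6.46e-08) and the one over Hoxd9 and Hoxd10 (-1.36, adjusted p = 0.00238).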

How the data were processed

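CUT&RUN was performed on MSCs of young and old mice with 2 antibodies. The authors deposited 1 table per mark with a signal value per called region and library. The submitters' processing notes name Bowtie2, Picard and mm10 (GRCm38), and the region caller is not given in the sources used here. The authors named the values RPKM, but the deposited signal was not divided by region length: in all 12 columns 100% of values were whole multiples of the signal of 1 read at a constant 0.5 kb (tolerance 0.001), which gave whole reads and library totals, 3622108 to 9947515 for H3K27me3. The planned test was kept. Of columns with sample values, 0 were unused. Regions were placed on GRCm38.p6 with GENCODE vM21 (basic).

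Columns were scaled by RLE, and log2(signal + 0.5) was fitted across all regions of a mark with limma 3.58.1 (trend, robust, two-sided, no filter), with Benjamini-Hochberg adjustment at 0.05. edgeR 4.0.16 and DESeq2 1.42.0 on recovered reads, other scalings, pseudocounts, filters, flanks and left-out replicates were alternatives, as were the joining of abutting regions and the leaving out of regions of one age, added after seeing the data. The scripts were tested on simulated data. The members and lists were chosen with earlier results of these data known. Named regions were those called, the smallest p-value of each gene and mark, and the region over or nearest the start (1 kb). Further regions of Meis1, Meis2 and Pknox2 were named after their values were seen.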

Additional observations from a re-analysis of the deposited data

How the results depend on the processing

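The count of H3K27ac regions called stayed at 0 of the members in every alternative. The count of called H3K27me3 regions (4) was 10 on the signal as deposited, 9 with edgeR, 7 with the replicate block, 2 with a pseudocount of 0.1, with regions of the lowest mean signal left out (the filter) or with no flank, and 1 without trend and robust moderation, with the regions of one age left out or with DESeq2, which gave no adjusted p for 22 of the 34 regions, those of the Meis2 promoter included. It was 1 to 6 when replicates were left out in turn, 1 without young replicate 3 and 2 without young replicate 1 or 2. Over all H3K27me3 regions, the calls numbered 137, but 774 as deposited, 394 with edgeR, 309 with the replicate block, 76 with DESeq2, 71 with a pseudocount of 0.1, 84 with the filter, 35 without moderation by trend and 10 to 313 without single replicates; over all H3K27ac regions they numbered 26, but 105, 96, 81, 6, 14, 30 and 0 under the same settings and 2 to 45 without single replicates. Samples of the same number did not deviate together (r from -0.08 to 0.07). The labels do not say whether the replicate number stands for a pairing, and with 3 samples per age this check cannot exclude one. The median log2 fold change of H3K27me3 (-0.28) was -0.40 as deposited, -0.072 with the filter, -0.069 with regions joined, -0.069 with the regions of one age left out, -0.59, -0.42 and -0.13 with flanks of 0, 20 and 100 kb, -0.14 by nearest start and -0.37 to -0.20 without single replicates. That of H3K27ac (0.08) was -0.029 as deposited, 0.11 with the filter, 0.16 with flanks of 0 or 20 kb, 0.18 by nearest start and 0.070 to 0.17 without single replicates. The intronic H3K27ac region of Meis2 (0.12) turned to -0.0012 as deposited and to -0.050 without young or old replicate 2, and ranged from -0.050 to 0.37 without single replicates. Of the other alternatives for named regions, 261 stayed on the same side of the threshold, 15 fell short of it, all at called Meis2 regions, and 7 passed it. Of those for locus totals and balances, 155 and 77 moved by less than 1 SD and 17 and 7 by more. The sign turned in 14 of those for totals, at 5 totals whose ages overlapped, and in 5 of those for balances, at Pbx2 and Pknox1. The causes were not tested. Old replicate 2 held 10 reads at the Meis2 promoter, and smaller regions had fewer, which limits their precision.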
